A study of Arabidopsis thaliana with 6 samples.

Results

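The dehydrogenases of the oxidative pentose phosphate pathway were followed as 9 Arabidopsis thaliana genes, chosen by locus code: G6PD1 (AT5G35790), G6PD2 (AT5G13110), G6PD3 (AT1G24280), G6PD4 (AT1G09420), G6PD5 (AT3G27300), G6PD6 (AT5G40760), PGD1 (AT1G64190), PGD2 (AT3G02360) and PGD3 (AT5G41670). All 9 were found among the 28259 loci of the deposited tables, and all 9 passed the filter on low counts. The libraries came from whole seedlings of the wild-type accession Col-0, aged 10 days and raised with 10 h of light and 14 h of dark. After a night in water the seedlings received 3-OH-C10:0 (3-hydroxydecanoic acid, a bacterial fatty acid sensed by plants) or only its solvent DMSO, and RNA was taken 8 h later from 3 replicates of each group. One label puts the dose at 5 microM and another at 5 mM, so the concentration cannot be stated. No label says whether replicates were grown apart, so p-values describe the spread between these samples, which may be technical. The series addresses how NADPH is supplied for reactive oxygen production in plant immunity, and these dehydrogenases are a source of NADPH.

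The oxidative branch turns glucose 6-phosphate into ribulose 5-phosphate and reduces NADP+ to NADPH at its first and last steps. A lactonase acts between them, and PGD enzymes, the 6-phosphogluconate dehydrogenases, carry out the last step with the release of CO2. Plants run this branch in the plastid and in the cytosol with separate enzymes. RefSeq gene notes describe G6PD1, G6PD2 and G6PD3 as plastid enzymes sensitive to reduction and G6PD6 as a cytosolic enzyme insensitive to it; G6PD5 is the other cytosolic isoform. PGD1 and PGD3 serve cytosol and plastid, and PGD2 serves cytosol and peroxisome. The RefSeq note on G6PD4 states that it lacks activity, and it is known to bind G6PD1 and route that protein to peroxisomes.

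The 9 genes lie on chromosomes 1, 3 and 5. G6PD1 occupies chr5:13956672-13959830 on the minus strand with 8 exon blocks, G6PD5 chr3:10083009-10086798 on the minus strand with 16, and G6PD6 chr5:16310663-16314811 on the plus strand with 17. PGD2 occupies chr3:481776-484152 on the plus strand with 2 exon blocks, PGD1 chr1:23825328-23827136 on the minus strand with 1, and PGD3 chr5:16664674-16667390 on the minus strand with 2.

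The closest pairs were similar enough that shared reads had to be considered. Coding sequences of G6PD5 and G6PD6 were 85.3% identical with a longest identical run of 47 bases, those of G6PD2 and G6PD3 84.3% with 52 bases, and those of PGD1 and PGD3 87.6% with 41 bases. PGD2 was only 70.7% identical to PGD1 and 70.1% to PGD3. Every count of the 9 genes was a whole number, whereas 3.618% of all count values in the tables were not. Reads that lie inside an identical run cannot be assigned between partners, and the values of these pairs carry that limit. RefSeq also lists antisense transcripts that overlap G6PD3, G6PD4 and PGD1; use of strand in the counting is not stated, so reads of these genes and their antisense partners cannot be told apart.

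The libraries held between 18064723 and 27131500 estimated counts. Treated replicate 3 stood apart, with a mean chi-square per gene of 23.1 and 22.8 against the other treated libraries, which differed from each other by 4.72; pairs of DMSO libraries lay between 6.09 and 13.2. Without it each of the 9 genes kept its call, and the G6PD1 value is given with and without it.

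Transcripts of the cytosolic isoforms G6PD5 and G6PD6 rose, the plastid isoform G6PD1 fell, and PGD2 and PGD3 rose. Levels are given as FPKM (fragments scaled by transcript length and library size, set by the authors), which allow genes of different length to be compared. Fold changes are from edgeR's quasi-likelihood test on the counts of all genes, as log2 of treated over DMSO ± standard error, with Benjamini-Hochberg adjusted p-values. The test prints no standard error, so the absolute log2 fold change divided by the square root of its F statistic was used. A gene is said to have risen or fallen where the adjusted p was under 0.05.

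G6PD6 changed more than any of the other 8 dehydrogenase genes. It stood at 14.0, 13.9 and 15.5 FPKM in the DMSO libraries and at 67.5, 68.6 and 61.6 FPKM in the treated libraries, from estimated counts of 533 to 630 and 2428 to 3273. Every treated library was above every DMSO library. The log2 fold change was 2.27 ± 0.0839 (4.83-fold, adjusted p = 3.5e-09), and 93.9% of all tested genes had a lower one. Its cytosolic partner G6PD5 stood at 25.7, 28.3 and 27.7 FPKM in DMSO and at 45.9, 45.4 and 40.4 FPKM after treatment. The groups did not overlap, and the rise was smaller, with a log2 fold change of 0.77 ± 0.0847 (1.71-fold, adjusted p = 1.2e-05).

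G6PD1, which had the highest level of the 9 genes in control seedlings, fell. Its DMSO libraries held 79.3, 84.9 and 85.5 FPKM and its treated libraries 28.7, 36.1 and 41.2 FPKM. The groups were apart, and treated replicate 3 was the treated library nearest to DMSO. The log2 fold change was -1.15 ± 0.122 (adjusted p = 1.1e-05), a 2.22-fold decrease, and -1.28 without treated replicate 3 (adjusted p = 6.0e-07).

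The other plastid genes did not pass the test. G6PD2, described by RefSeq as highest in roots, was at 14.0, 13.7 and 13.7 FPKM in DMSO and at 14.1, 14.8 and 13.6 FPKM after treatment (log2 difference 0.12 ± 0.0751, adjusted p = 0.166). These FPKM values overlapped, while CPM did not, at 28.4, 28.7 and 27.8 in DMSO and 31.0, 31.8 and 29.8 after treatment. G6PD3, with the same RefSeq description, was the lowest of the 9 genes at 4.84, 2.68 and 3.12 FPKM in DMSO and 4.53, 3.49 and 3.11 FPKM after treatment (0.15 ± 0.226, adjusted p = 0.561). Its replicates spread as widely as the whole set of 6 libraries, and the sign of the difference turned to -0.01 when DMSO replicate 2 or treated replicate 1 was left out.

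G6PD4 also did not pass. It stood at 26.0, 38.5 and 33.3 FPKM in DMSO and at 28.1, 29.8 and 28.2 FPKM after treatment (log2 difference -0.10 ± 0.134, adjusted p = 0.51). DMSO replicate 1 was the lowest of the 6 libraries and DMSO replicate 2 the highest. Without DMSO replicate 1 the gene passed as lower (-0.25, adjusted p = 0.0396), and without DMSO replicate 2 the sign turned (0.05, adjusted p = 0.697).

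Among the PGD genes the rise was concentrated in PGD2. It held 66.5, 60.3 and 65.7 FPKM in the DMSO libraries and 249.8, 239 and 221 FPKM in the treated libraries, and was the most abundant of the 9 genes after treatment. All treated libraries lay above all DMSO libraries, with a log2 fold change of 1.97 ± 0.0937 (3.91-fold, adjusted p = 2.2e-08). PGD3 rose less, from 34.8, 27.8 and 31.2 to 49.2, 45.2 and 42.9 FPKM (0.63 ± 0.0936, adjusted p = 1.2e-04), again without overlap. PGD1 stood at 42.6, 38.6 and 41.0 FPKM in DMSO and 37.8, 35.7 and 36.7 FPKM after treatment, and it did not pass (-0.06 ± 0.0748, adjusted p = 0.457). The PGD1 groups did not overlap in FPKM but did overlap in CPM, counts scaled for library size alone with TMM factors.

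**Figure D1:**
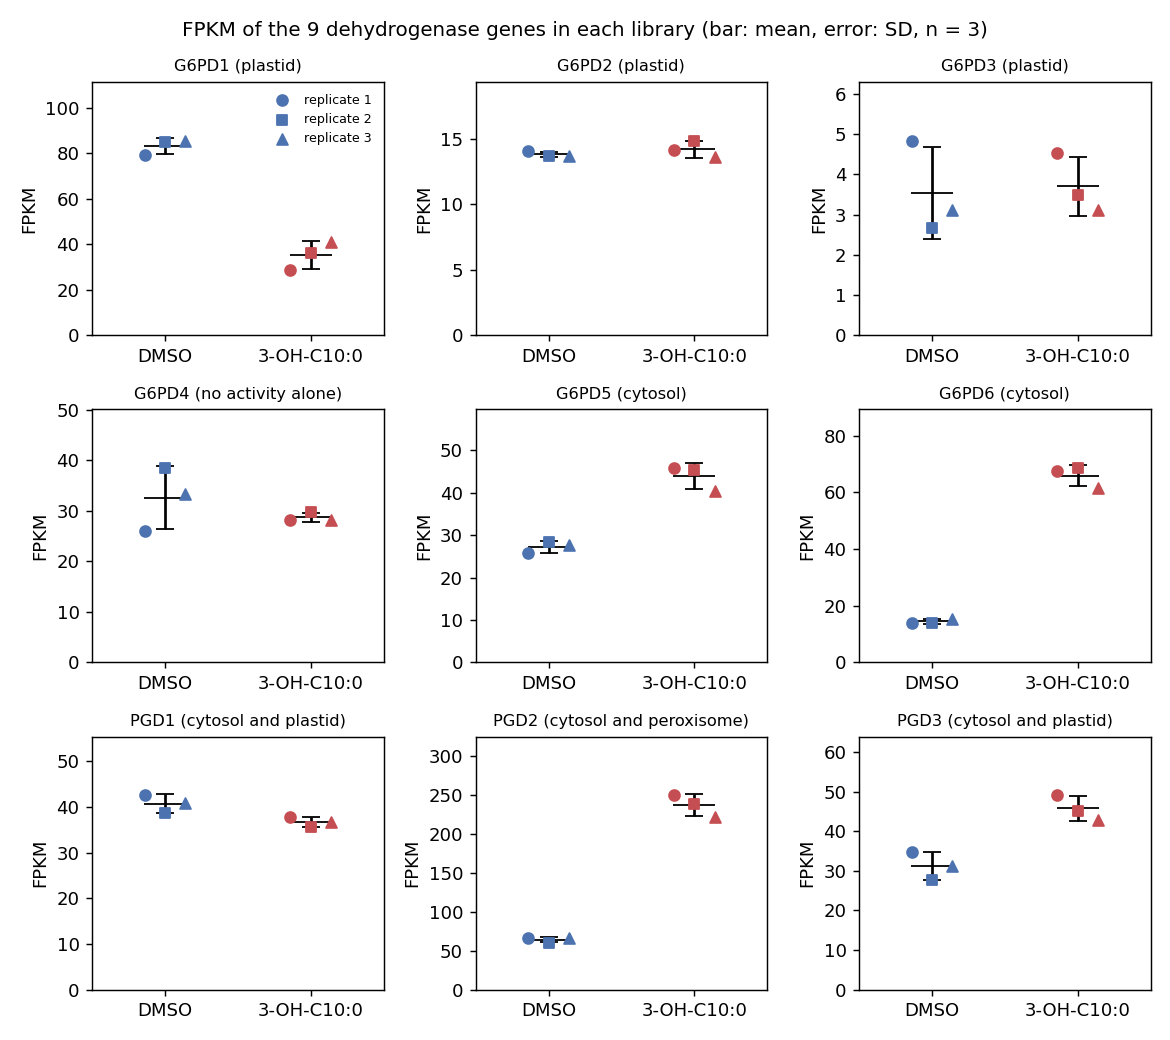
FPKM of each of the 9 dehydrogenase genes in the 3 DMSO libraries (blue) and the 3 libraries treated with 3-OH-C10:0 (red), with the mean as a black dash and the SD as error (n = 3); marker shape gives the replicate number and every axis starts at 0. G6PD5, G6PD6, PGD2 and PGD3 sit higher after treatment, G6PD1 sits lower (28.7 to 41.2 against 79.3 to 85.5 FPKM), and the groups overlap for G6PD2, G6PD3 and G6PD4.

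In all, 4 of the 9 genes rose, 1 fell and 4 did not pass. This treatment moved most of the transcriptome, and 71.4% of the 19768 tested genes passed the test, 35.6% as higher and 35.8% as lower. The number of dehydrogenase genes that passed was thus no sign that the family stands out, and the median log2 fold change of the 9 genes was 0.15 against -0.04 over all tested genes. In CPM, 6 of the 9 genes had all treated libraries on one side of all DMSO libraries, against 75.9% of all tested genes. Within the family the isoforms differed in the direction and size of their values.

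By mean level G6PD6 and G6PD5 stood above G6PD1 and G6PD4 after treatment and below them in DMSO, while G6PD2 and G6PD3 were the lowest after treatment as in DMSO. In DMSO seedlings G6PD1 led with a mean of 83.3 ± 3.41 FPKM (SD, n = 3), followed by G6PD4 with 32.6 ± 6.29, G6PD5 with 27.3 ± 1.35, G6PD6 with 14.5 ± 0.866, G6PD2 with 13.8 ± 0.192 and G6PD3 with 3.55 ± 1.14 FPKM. The ranges of G6PD4 and G6PD5 over libraries overlapped, as did those of G6PD6 and G6PD2, although within each of the 3 DMSO libraries G6PD4 was above G6PD5 and G6PD6 above G6PD2. After treatment G6PD6 led with 65.9 ± 3.78 FPKM, ahead of G6PD5 with 43.9 ± 3.03, G6PD1 with 35.3 ± 6.27, G6PD4 with 28.7 ± 0.913, G6PD2 with 14.2 ± 0.627 and G6PD3 with 3.71 ± 0.735 FPKM. Here the ranges of G6PD5 and G6PD1 overlapped, with G6PD5 higher in 2 of 3 libraries, and so did those of G6PD1 and G6PD4, with G6PD1 higher in 3 of 3. These neighbouring levels were not tested.

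For PGD both the sum and the makeup changed. The 3 genes summed to 144, 127 and 138 FPKM in DMSO and to 337, 320 and 301 FPKM after treatment, 2.34-fold higher in the mean. PGD2 supplied 46.2%, 47.6% and 47.7% of that level in DMSO and 74.2%, 74.7% and 73.5% after treatment. PGD1 went from 29.9% ± 0.483 to 11.5% ± 0.590 and PGD3 from 22.9% ± 1.15 to 14.3% ± 0.235 (SD, n = 3). The PGD3 share was thus lower although its own level was higher.

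**Figure D2:**
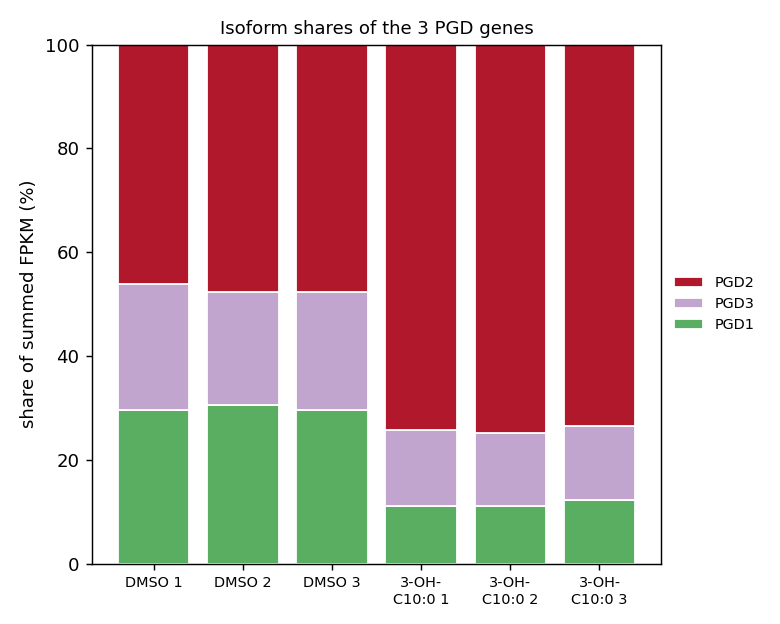
Share of each isoform in the summed FPKM of the 3 PGD genes, as stacked bars in percent, with 1 bar for each of the 6 libraries. PGD2 (red) takes 46.2% to 47.7% of the DMSO bars and 73.5% to 74.7% of the treated bars.

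Whether isoforms differed from each other in their response was examined through the log2 ratio of their FPKM in each library, over 9 pairs. With 3 libraries against 3 an exact two-sided permutation test cannot give a p below 0.1, which is 0.113 after Benjamini-Hochberg adjustment over the pairs, so no pair could pass 0.05. The ratio of G6PD6 to G6PD1 was 0.177, 0.163 and 0.181 in DMSO libraries and 2.35, 1.90 and 1.49 in treated libraries. The groups did not overlap, with a difference in mean log2 ratio of 3.44 (exact permutation p = 0.1). The ratio of G6PD6 to its cytosolic partner G6PD5 went from 0.545, 0.490 and 0.557 to 1.47, 1.51 and 1.52, a log2 difference of 1.5 (exact permutation p = 0.1). All 3 DMSO libraries held less G6PD6 than G6PD5, and all 3 treated libraries held more.

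Among the plastid isoforms, the ratio of G6PD2 to G6PD1 went from 0.177, 0.161 and 0.160 to 0.491, 0.411 and 0.330 (log2 difference 1.29, exact permutation p = 0.1), without overlap. G6PD3 to G6PD2, the most similar plastid pair, showed a log2 difference of 0.05 with overlapping libraries (exact permutation p = 0.8), and its sign turned in 3 of the 6 runs that left out 1 library. The ratio of PGD2 to PGD1 went from 1.56, 1.56 and 1.60 to 6.61, 6.70 and 6.03 (log2 difference 2.03, exact permutation p = 0.1). The ratio of PGD1 to PGD3 moved from 1.22, 1.39 and 1.31 to 0.769, 0.788 and 0.856 (-0.70, exact permutation p = 0.1). G6PD6 and PGD2, which catalyse the first and the last oxidation of the branch and had the largest fold changes of the 9 genes, differed less: their ratio was 0.211, 0.230 and 0.235 in DMSO and 0.270, 0.287 and 0.278 after treatment, a log2 difference of 0.31 (exact permutation p = 0.1).

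**Figure D3:**
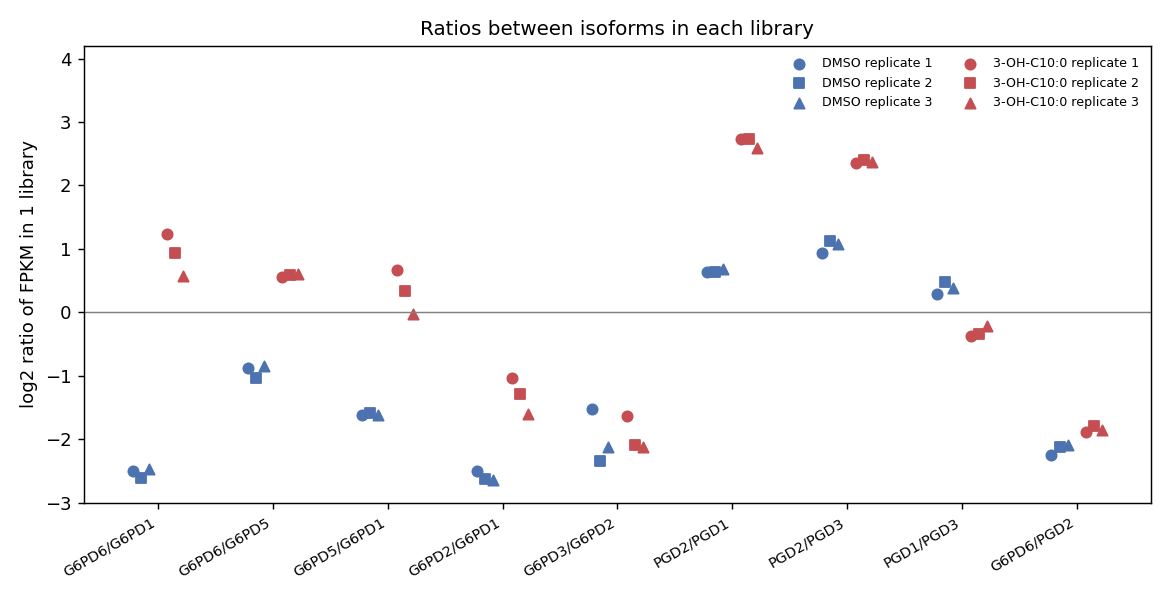
Log2 ratio of FPKM between the members of 9 isoform pairs, with 1 point per library (blue: DMSO, red: 3-OH-C10:0, marker shape: replicate number). The groups are apart for 8 pairs, by 3.44 for G6PD6 over G6PD1, and overlap for G6PD3 over G6PD2. Of single tested genes 75.9% were apart in CPM, and the share over all gene pairs was not computed.

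The fall of G6PD1 was accompanied by a lower level of leaf transcripts. Of 9 leaf markers (Rubisco small subunit, light-harvesting and Calvin cycle genes) 8 fell and none rose, with LHCB1.1 not passing (-0.97, adjusted p = 0.127). LHCB1.1 passed as lower without treated replicate 2 (-1.42, adjusted p = 0.0426) and with limma on log2(FPKM + 0.1) (-1.04, adjusted p = 0.0411). Of all tested genes 35.8% fell. The summed share of the leaf markers in all counts was between 6.23% and 6.73% in DMSO libraries and at 1.55%, 1.52% and 2.21% in treated replicates 1 to 3. None of the 9 was at 0 in any library. The order of the treated replicates differed slightly from that of G6PD1, but replicate 3 was highest in both. That library stood apart over the tested genes as a whole, and a tie between G6PD1 and the leaf markers was not tested. RefSeq describes G6PD1 transcripts as absent from roots. Of 12 root markers 9 fell and 1 rose, against 35.8% and 35.6% of all tested genes. SCR rose by 0.23 (adjusted p = 0.021). That call was lost without DMSO replicate 1 (adjusted p = 0.0665) or treated replicate 1 or 2 (0.0677 and 0.0551). The falls of EXPA18 (-0.52) and PLT2 (-0.68) lost their calls with DESeq2 (adjusted p = 0.0654 and 0.0936). Both calls were also lost in some runs without 1 library. The summed share of the root markers was 0.142% to 0.157% in DMSO and 0.0717% to 0.0998% after treatment, and none was at 0. PYK10 weighed most in this sum, at 743 FPKM in DMSO, while PER57, the next highest of the 12, had 46.9 FPKM. The root-type genes G6PD2 and G6PD3 did not pass. Of 3 guard cell markers, 2 fell, against 35.8% of all tested genes, and none was at 0. With so few genes this count does not set guard cells apart. In whole seedlings fewer cells of a type and less RNA per cell cannot be told apart, and the part of these marker changes in the G6PD1 result was not tested.

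Upstream sequence is shown for the cytosolic pair G6PD5 and G6PD6, which rose unequally, and for G6PD1, which fell. Each run holds the 300 bases before the annotated gene start in TAIR10.1, 5′ to 3′ in the direction of the gene. For G6PD6 (chr5:16310363-16310662, plus strand) capitals mark the copies of the longest direct repeat; for G6PD5 (chr3:10086799-10087098, minus strand) capitals mark W boxes, the motif bound by WRKY factors; G6PD1 (chr5:13959831-13960130, minus strand) held no searched motif.
G6PD6: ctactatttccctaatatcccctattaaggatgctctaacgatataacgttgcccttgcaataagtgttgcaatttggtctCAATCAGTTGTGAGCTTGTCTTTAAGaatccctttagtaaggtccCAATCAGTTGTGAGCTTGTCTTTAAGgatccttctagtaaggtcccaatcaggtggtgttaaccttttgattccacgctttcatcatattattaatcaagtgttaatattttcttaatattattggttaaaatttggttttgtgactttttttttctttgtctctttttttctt
G6PD5: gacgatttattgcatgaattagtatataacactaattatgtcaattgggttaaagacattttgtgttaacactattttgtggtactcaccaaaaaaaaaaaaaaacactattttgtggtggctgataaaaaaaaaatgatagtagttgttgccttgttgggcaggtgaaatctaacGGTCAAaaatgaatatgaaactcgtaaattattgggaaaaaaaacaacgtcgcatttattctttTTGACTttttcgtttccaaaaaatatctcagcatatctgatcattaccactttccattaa
G6PD1: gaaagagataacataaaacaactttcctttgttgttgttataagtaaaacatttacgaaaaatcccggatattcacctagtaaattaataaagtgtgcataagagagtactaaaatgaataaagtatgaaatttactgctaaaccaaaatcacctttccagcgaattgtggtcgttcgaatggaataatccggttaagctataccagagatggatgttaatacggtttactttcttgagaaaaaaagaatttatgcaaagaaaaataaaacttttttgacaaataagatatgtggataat
The G6PD6 window contains a direct repeat of 26 bases whose copies start at positions -219 and -174 from the gene start, and 0.765% of the 27443 windows of protein-coding genes hold a repeat at least that long. The longest repeat of G6PD5 was 16 bases (4.87% of windows), and those of the other 7 genes were 8 or 9 bases.

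Motifs were searched on both strands as the W box with the letters TTGACC or the variant letters TTGACT, the element TGACG, the GCC box with the letters GCCGCC and the G box with the letters CACGTG. W boxes were found in 2 of the 9 windows, against 32.3% of all windows. G6PD5 held 2 of them, at positions -124 to -119 and -60 to -55 counted from the gene start, and G6PD4 held 1 W box and 2 TGACG elements, none overlapping another. TGACG occurs in 21.3% of all windows. No GCC box (2.26% of all windows) or G box (7.09%) was found in any of the 9 windows, and G6PD6, PGD2, PGD3 and G6PD1, which changed, held no searched motif. The windows of G6PD2, G6PD4, PGD2 and PGD3 overlap a neighbouring gene. A match or its absence in these 300 bases describes the letters alone.

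Of 72 genes in 8 lists around the dehydrogenases 30 rose, 32 fell and 10 did not pass. For comparison, 35.6% of all tested genes rose and 35.8% fell, so a split into higher and lower genes was also present there. The pooled counts do not describe single lists, and differences of single lists from all tested genes were not tested. Of the 5 lactonases, PGL3 rose, PGL2 and PGL5 fell and PGL1 and PGL4 did not pass. PGL3, the plastid lactonase, stood at 43.1 ± 1.57 and 49.2 ± 3.08 FPKM (log2 fold change 0.27, adjusted p = 0.00946), a call lost without DMSO replicate 3 (adjusted p = 0.0564) and with scaling to library totals (0.0513). PGL2 fell from 13.6 ± 1.35 to 7.43 ± 0.535 FPKM, and PGL5 fell from 3.18 ± 0.470 to 0.527 ± 0.466 FPKM (log2 -2.39, with -3.52 without treated replicate 3 and -1.49 with limma on log2(FPKM + 1)). No lactonase gene rose by as much as G6PD6 or PGD2.

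All 11 genes of the non-oxidative branch, which converts pentose phosphates back to sugar phosphates, passed the test, against 71.4% of all tested genes. Of them 5 were higher and 6 lower, with a median log2 fold change of -0.82. The transaldolase gene TRA2 rose from 33.4, 27.3 and 31.6 to 177, 181 and 158 FPKM (log2 fold change 2.57 ± 0.1, adjusted p = 5.0e-09), while TRA1 fell (-0.82). The transketolase gene TKL2 rose from 8.29 ± 1.99 to 35.0 ± 4.28 FPKM (2.16), and TKL1, the abundant transketolase of photosynthetic carbon fixation, fell from 1010 ± 61.6 to 368 ± 57.4 FPKM (-1.37). Ribulose-5-phosphate epimerase genes also went in both directions: the plastid gene RPE fell (-1.21), and the other genes AT1G63290 (0.81) and AT3G01850 (0.54) rose. Compartments of the transaldolase and transketolase genes were not compared, so no split by compartment is stated for this branch. Of the ribose-5-phosphate isomerases RPI1 rose (1.77), and RPI2 (-1.13), the plastid gene RPI3 (-1.23) and RPI4 (-1.39) fell. Each of these adjusted p-values was 1.6e-04 or lower in edgeR's test.

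Of 12 genes that supply glucose 6-phosphate 5 rose, 6 fell and 1 did not pass, against the same 35.6% and 35.8% of all tested genes. The plastid phosphoglucomutase gene PGMP fell from 115 ± 7.36 to 28.7 ± 5.15 FPKM (log2 -1.92) and the plastid phosphoglucose isomerase PGI1 fell by 0.51 on the log2 scale, while the cytosolic isomerase PGIC rose (0.68). Of the cytosolic phosphoglucomutases PGM3 rose (0.66) and PGM2 fell (-1.10). The hexokinase HXK1 rose (0.38), HXK2 and the hexokinase-like HKL1 fell (-0.78 and -0.48), and HXK3 did not pass (-0.09, adjusted p = 0.597). GPT2, which carries glucose 6-phosphate into plastids, rose from 0.43, 0.12 and 0.06 to 21.95, 24.1 and 33.3 FPKM. Its log2 fold change was 7.12 ± 0.384 (adjusted p = 2.0e-06), with 8.19 without DMSO replicate 1, the control library with the highest value, and 4.50 with limma on log2(FPKM + 1). The size of this fold thus depends on the offset added to control values near 0. GPT1 rose less (0.44), and XPT, the plastid xylulose 5-phosphate translocator, fell (-1.09).

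**Figure D4:**
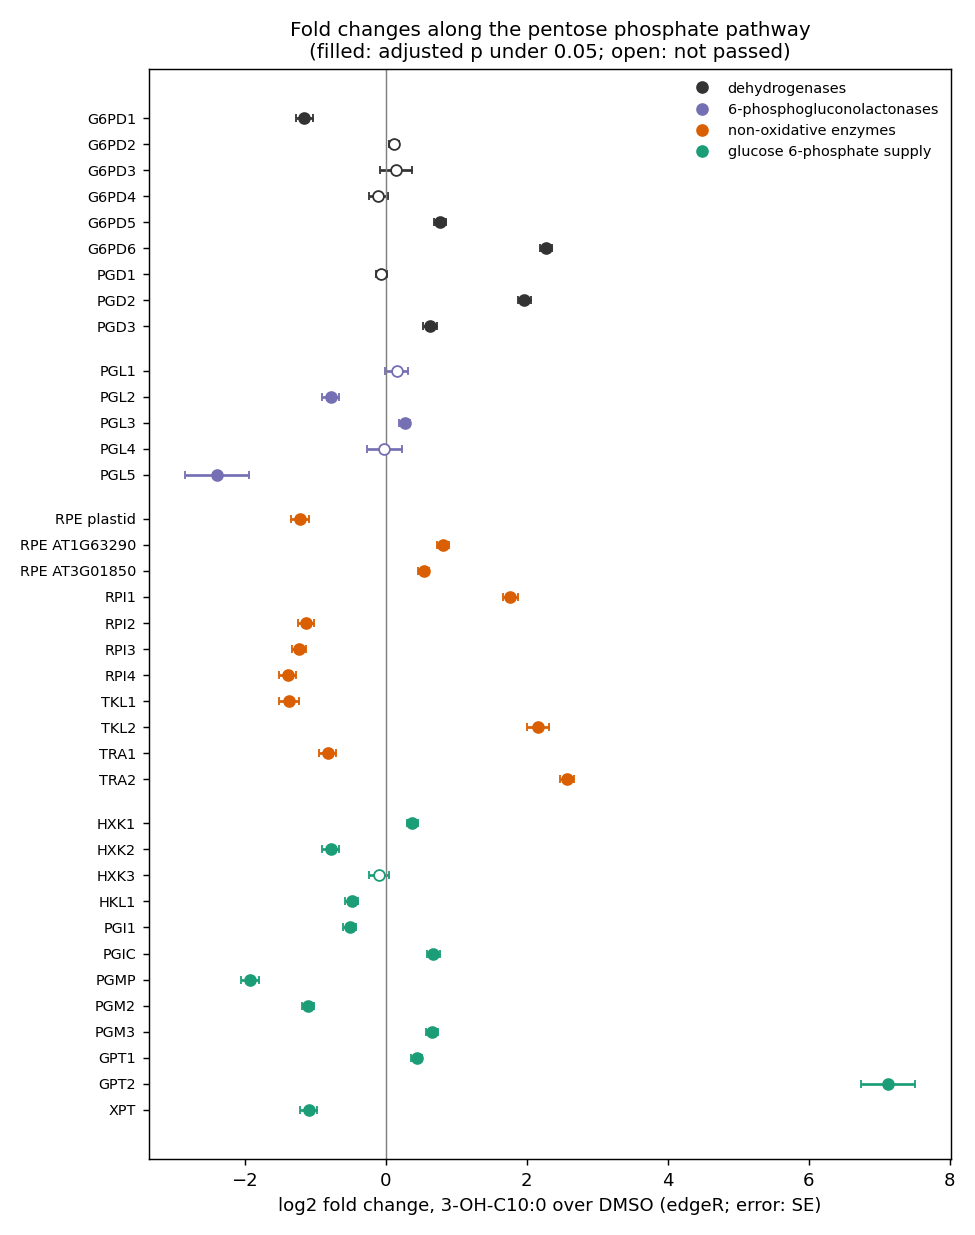
Log2 fold change of treated over DMSO seedlings (edgeR) ± SE (derived from the F statistic). Shown are the 9 dehydrogenase genes, 5 lactonases, 11 non-oxidative enzymes and 12 genes of glucose 6-phosphate supply. Filled points passed an adjusted p of 0.05 and open points did not. Genes of one step lie on both sides of 0, as for G6PD1 (-1.15) and G6PD6 (2.27) or TKL1 (-1.37) and TKL2 (2.16), and GPT2 lies apart at 7.12.

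Thioredoxins and a kinase were also measured at the transcript level. Of the 6 thioredoxins m and f, which reduce plastid enzymes in the light, 5 fell and 1 rose. Of all tested genes 35.8% fell and 35.6% rose. TRXm1 fell from 611 ± 17.0 to 170 ± 41.1 FPKM (log2 -1.76), TRXf1 from 478 ± 37.5 to 113 ± 29.3 FPKM (-2.0) and TRXf2 from 119 ± 4.41 to 33.7 ± 5.31 FPKM (-1.73), and TRXm2 (-0.52) and TRXm4 (-0.61) fell less. TRXm3 rose (1.29). ASKalpha, a GSK3-type kinase that phosphorylates G6PD6, rose from 34.0 ± 1.49 to 64.7 ± 0.435 FPKM (1.01, adjusted p = 5.0e-07). These values describe transcripts, and enzyme activity was not measured.

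Among 13 other genes that reduce NADP or make it from NAD, 5 rose, 4 fell and 4 did not pass. Over all tested genes 35.6% rose and 35.8% fell. For scale beside the dehydrogenases, the cytosolic isocitrate dehydrogenase cICDH rose from 423 ± 23.3 to 814 ± 27.7 FPKM (log2 1.03) and NADP-ME2 from 279 ± 7.62 to 625 ± 42.5 FPKM (1.25). Both were more abundant per length than PGD2 in either group, while their fold changes were smaller than those of G6PD6 and PGD2; differences between these fold changes were not tested. The photosynthetic ferredoxin-NADP reductases LFNR1 (-1.59) and LFNR2 (-1.61) fell. The NAD kinase genes NADK1 (0.83) and NADK2 (0.34) rose, and the organellar isocitrate dehydrogenase (-0.48) and the aldehyde dehydrogenase ALDH11A3 (-0.43) fell. NADP-ME1 rose (1.27, adjusted p = 0.0128) at a mean of 0.167 and 0.397 FPKM, a call lost without treated replicate 2 (adjusted p = 0.0562); limma on log2(FPKM + 1) gave 0.26.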

How the data were processed

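RNA-seq values of 6 seedling libraries were used in 2 groups of 3, as labelled. The submitters' processing notes name HISAT2 2.2.4, Bowtie2 2.2.8, StringTie 1.3.1, RSEM and fastp 0.18.0 without saying what each did, and the build TAIR10. Estimated counts per locus were deposited by the authors without normalisation, and were rounded here to whole numbers. The deposited FPKM values were set by the authors and used unchanged. CPM here are TMM-scaled counts. Counts summed to between 18064723 and 27131500 per library.

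Genes were filtered with filterByExpr (minimum count 10), which left 19768, scaled by TMM and tested with edgeR 4.0.16 (robust quasi-likelihood F test, two-sided, no replicate block, Benjamini-Hochberg adjustment over all tested genes, threshold 0.05). The procedure was tested on simulated data in which only a small share of genes changed. That setting differs from these data, where most tested genes passed. Alternatives used DESeq2 1.42.0 and limma 3.58.1. Coordinates, coding sequences and upstream windows are from RefSeq for TAIR10.1, matched by locus code, since the files hold no coordinates. TAIR10.1 and the files' build were not compared base by base.

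The members and lists were chosen with earlier results of these data known. Named were all 9 dehydrogenase genes, every gene of 8 lists around them that passed the test, and the 3 genes nearest to G6PD6, PGD2 and G6PD1 by profile. Genes named although they did not pass, the G6PD5 window and the repeat search were chosen after values were seen.

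Some results are not reported here.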

Additional observations from a re-analysis of the deposited data

How the results depend on the processing

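The 5 dehydrogenase calls held under all 14 alternatives, with log2 fold changes of 2.11 to 2.32 for G6PD6, 1.87 to 2.01 for PGD2, 0.67 to 0.83 for G6PD5, 0.54 to 0.70 for PGD3 and -1.28 to -1.02 for G6PD1. The count of members that fell was 1 to 2 over the runs without 1 library (2 without DMSO replicate 1, through G6PD4). Without DMSO replicate 1, G6PD4 passed at -0.25 and G6PD3 stood at 0.42. G6PD3 turned to -0.01 without DMSO replicate 2 and without treated replicate 1, and G6PD4 to 0.05 without DMSO replicate 2. The ratio of G6PD3 to G6PD2 ranged from -0.12 to 0.29 when 1 library was left out, with -0.12, -0.01 and -0.10 without DMSO replicates 2 and 3 and treated replicate 1. With library totals as scaling and with limma on log2(FPKM + 1) or log2(FPKM + 0.1), 0 in place of 1 lactonase rose (PGL3), 2 in place of 1 gene of carbon exit fell (DHS2 added) and 0 in place of 1 root marker rose (SCR). Under the same settings FD3 lost its call (adjusted p of 0.112 to 0.116), and NADP-ME3 and NADK3 passed as lower, so that 6 in place of 4 of the other NADP-reducing enzymes and NAD kinases fell. Without 1 library the lactonases that rose numbered 0 to 1, the root markers that rose 0 to 1 and the root markers that fell 7 to 9. Leaf markers that fell numbered 9 in place of 8 without treated replicate 2 and with limma on log2(FPKM + 0.1), through LHCB1.1. With DESeq2 7 root markers fell, as EXPA18 and PLT2 lost their calls. Causes were not tested. Replicate numbers did not pair libraries (correlation of deviations 0.026, -0.016 and 0.099). With a replicate block the 4 and 1 dehydrogenase calls stood, with 7063 genes higher and 7087 lower over the table. The main run with TMM scaling, which gave the shares of 35.6% and 35.8%, had 7036 higher and 7084 lower. Library totals gave 6410 and 7732. Limma gave 6430 and 7752 on log2(FPKM + 1), and 6411 and 7743 on log2(FPKM + 0.1). RLE size factors gave 7226 and 6892, and DESeq2 7075 and 6393. The split over the table thus moved with the setting, and which scaling suits these data was not tested. The effect of depth was not tested; the gene with the lowest counts, G6PD3 (115 to 192), had the largest standard error of the 9 (0.226).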

Other observations

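Genes that draw on the pathway's products included genes with large changes. Of 8 genes at the exits of pentose phosphate carbon 5 rose, 1 fell and 2 did not pass, against 35.6% and 35.8% of all tested genes that rose and fell. DHS3, an isoform of the enzyme that joins erythrose 4-phosphate to the shikimate pathway, rose from 40.1 ± 8.05 to 433 ± 19.2 FPKM (log2 fold change 3.52 ± 0.144, adjusted p = 6.8e-09 in edgeR's test), and DHS1 rose (1.74). PRS3, a phosphoribosyl pyrophosphate synthase that uses ribose 5-phosphate, rose from 12.9 ± 0.678 to 123 ± 12.4 FPKM (3.34 ± 0.101, adjusted p = 9.3e-10), while PRS1 (0.68) and PRS5 (0.72) rose less, PRS4 fell (-0.66) and PRS2 did not pass (-0.02, adjusted p = 0.924). Of 7 NADPH-dependent reductases 4 rose and 3 fell, beside the same shares of all tested genes. Glutathione reductase genes went in opposite directions, with the cytosolic GR1 going from 23.1 ± 1.34 to 54.2 ± 3.60 FPKM (1.32) and the organellar GR2 from 103 ± 6.56 to 55.6 ± 3.53 FPKM (-0.80). The P450 reductase genes ATR2 (1.64) and ATR1 (0.65) and the thioredoxin reductase gene NTRA (0.90) rose, and NTRB (-0.32) and NTRC (-0.92) fell.

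Of 9 genes of the root plastid ferredoxin system and nitrogen assimilation 3 rose, 5 fell and 1 did not pass. Over all tested genes 35.6% rose and 35.8% fell. Nitrite reductase NIR1 (-1.51), the glutamate synthase GLU1 (-1.85) and the plastid glutamine synthetase GLN2 (-1.49) fell, and of the nitrate reductases NIA1 fell (-1.27) and NIA2 rose (1.60). The root-type ferredoxin reductase RFNR1 rose (0.89) while RFNR2 fell (-0.62). FD3 rose (0.29, adjusted p = 0.0285), a call lost without DMSO replicate 2 or 3 or treated replicate 1 (adjusted p of 0.11, 0.129 and 0.0995).

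By the distance between centred log2 CPM profiles over the 6 libraries, among 18792 genes with a mean of at least 20 counts, the genes nearest to G6PD6 were MAMI, SCAMP1 (SC3) and IAA10 with distances of 0.109, 0.109 and 0.11. Nearest to PGD2 were LYM2 (0.0852), QS (0.0886) and PUB43 (0.0971), and nearest to G6PD1 were NF-YB3 (0.102), BEE2 (0.115) and AT3G19000 (0.115). The choice by profile fixes their direction.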
